A study of Homo sapiens with 6 samples.

Results

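The PI3K, AKT and mTOR core components are 33 genes, chosen by name, of the 31348 genes counted in TPC1, an established line of human papillary thyroid cancer. They comprise the lipid kinase subunits, the kinases and complexes downstream of them, the phosphatases that oppose them and their direct effectors. Cells transfected with siSRPX2, a small interfering RNA against SRPX2, gave 3 libraries, and cells transfected with siControl, a control siRNA, gave 3. The labels of all 6 samples also give a wild-type genotype, a treatment named adipogenic differentiation, day 2, and DMEM with fetal bovine serum and antibiotics. By contrast with that genotype label, the paper lists TPC1 as RET/PTC rearranged. The paper describes no adipogenic treatment for these cells and gives another time and medium, so the samples were mapped by their titles. The paper names 1 siRNA for this experiment, siSRPX2-1, and 1 cell line, and calls the libraries of a group biological repeats.

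Total counts ran between 68424105 and 75828542 reads in siSRPX2 libraries, and between 63824315 and 73439682 reads in siControl libraries. The members took between 0.202% and 0.212% of the reads in siSRPX2 libraries and between 0.202% and 0.216% in siControl libraries. Libraries that share a replicate number resembled each other more than libraries that share an siRNA, and the first principal component, with 53.9% of the variance, set both replicate 2 libraries apart. The thyroid transcription factor genes PAX8 (76.9 to 103 FPKM in siSRPX2 libraries, 79.8 to 103 FPKM in siControl libraries) and FOXE1 were present, whereas thyroglobulin (TG) was at or below 0.172 FPKM everywhere. The keratin genes KRT8 and KRT18 were present, and the epithelial genes EPCAM and CDH1 were near 0. Of 7 listed adipocyte markers, 3 were in the table, with a summed level of 2.83 to 3.15 FPKM in siSRPX2 libraries and 2.23 to 3.38 FPKM in siControl libraries, nearly all of it PPARG. The lipid droplet gene PLIN1 did not exceed 0.0819 FPKM in any library.

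Phosphoinositide 3-kinases (PI3K) add a phosphate to inositol lipids of the plasma membrane. Class IA enzymes pair a catalytic subunit (PIK3CA, PIK3CB or PIK3CD) with a regulatory subunit (PIK3R1, PIK3R2 or PIK3R3) that binds activated receptors or adaptors such as IRS1. The lipid product recruits PDPK1 and the AKT kinases, AKT phosphorylates and restrains the TSC1-TSC2 complex, GSK3 and the FOXO transcription factors, and the small GTPase RHEB then activates mTOR complex 1. The pathway is controlled largely by phosphorylation and lipid turnover, which RNA sequencing does not measure, and activation of the pathway is a common feature of thyroid carcinoma.

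The first question was which isoforms these cells expressed. Levels are given as the deposited FPKM, in which fragments are scaled to library size and to a length, for most genes that of all annotated exons. Of the 33 members 32 lay above the expression limit, a mean of 0.5 FPKM over the 6 libraries, as did 13317 genes in all. EIF4EBP1, which encodes the translation repressor 4E-BP1, stood highest at 89.5 ± 20.8 FPKM (mean ± SD over the 6 libraries) and above 98.9% of all genes, ahead of RHEB in every library. INPP5D, which encodes the leukocyte lipid phosphatase SHIP1, was close to the floor. It had 14, 0 and 8 reads in siSRPX2 libraries, against 0, 0 and 29 reads in siControl libraries. Ranges over the 6 libraries overlapped for every pair of neighbours from RHEB down to PHLPP2, although some of these pairs, such as AKT2 over MTOR and MLST8 over PDPK1, kept the same order in each library. The order between genes also depends on the length used. In library-scaled reads per kilobase of the longest coding transcript, AKT1 (51.0) exceeded RHEB (36.9), and PTK2 (33.3) exceeded PIK3CD (17.5).

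**Figure D1:**
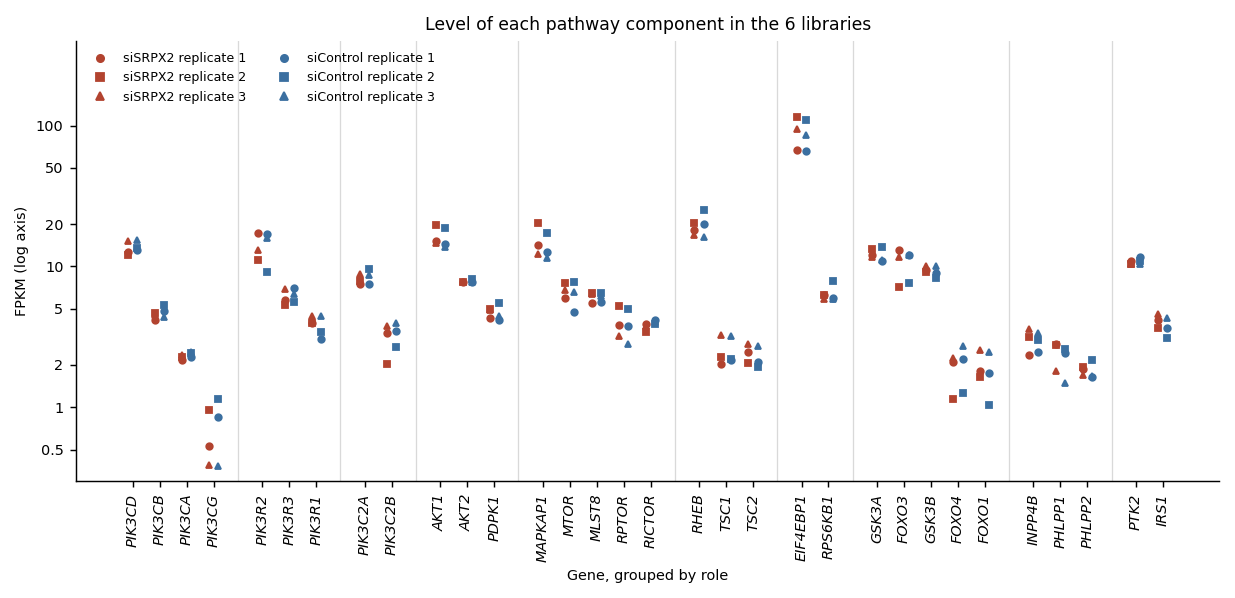
FPKM (log axis) of 32 of the 33 genes in each library, grouped by role and ordered within a role by the mean. Colours mark siSRPX2 (left of each gene) and siControl (right), and symbols mark the replicate number. EIF4EBP1 stands highest at a mean of 89.5 FPKM and PIK3CG lowest at 0.707 FPKM. INPP5D, at a mean of 0.0119 FPKM, is not drawn.

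Among the class I catalytic genes, PIK3CD (p110δ, on GRCh38 chr1:9651731-9729114, plus strand) was the most abundant. It had 12.6, 12.1 and 15.1 FPKM in siSRPX2 libraries, and 13.2, 13.4 and 15.3 FPKM in siControl libraries. PIK3CB (p110β) followed at a mean of 4.64 FPKM, PIK3CA (p110α) at 2.32 FPKM and PIK3CG (p110γ, the class IB subunit) at 0.707 FPKM, and the ranges of these 4 genes over the 6 libraries did not overlap. PIK3CD and PIK3CG are best known from leukocytes, and the leukocyte gene PTPRC (CD45) did not exceed 0.00493 FPKM in any library, while the other leukocyte marker in the table, CD68, was at 8.81 to 12.9 FPKM in siSRPX2 libraries and 4.66 to 8.48 FPKM in siControl libraries. PIK3CD made up 66.7%, 63.6% and 68.7% of class IA catalytic FPKM in siSRPX2 libraries, and 65.2%, 63.4% and 69.1% in siControl libraries. PIK3CB made up 22.3% ± 2.0 in siSRPX2 libraries and 22.9% ± 2.7 in siControl libraries (SD, n = 3 each).

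The deposited FPKM followed read density over all annotated exons of a gene (GENCODE release 29), with a ratio of 0.897 at the median of 13258 genes and quartiles of 0.893 and 0.900. The ratio was 0.496 for PIK3CA and 0.685 for PIK3CG, so the FPKM of these 2 genes understates their read density beside that of other genes. Among the other members the ratio was also low for PIK3R2 (0.786), FOXO4 (0.814) and AKT2 (0.848). It was high for EIF4EBP1 (1.10), whose FPKM overstates its read density. The cause was not tested. In library-scaled reads per kilobase of the longest coding transcript, PIK3CD stood at 17.5, PIK3CB at 6.85, PIK3CA at 4.89 and PIK3CG at 1.14, in the same order. On that scale PIK3CD made up 59.8% of the class IA catalytic level, PIK3CB 23.5% and PIK3CA 16.7%. PIK3R2 made up 55.1% of the class IA regulatory level and AKT1 65.8% of the AKT1 and AKT2 sum, and EIF4EBP1 stayed the highest member (85.9).

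Of the regulatory genes, PIK3R2 (p85β) had the highest level, 17.4, 11.0 and 13.1 FPKM in siSRPX2 libraries against 16.9, 9.09 and 15.8 FPKM in siControl libraries. PIK3R3 (p55γ) averaged 6.17 FPKM and PIK3R1 (p85α) 3.89 FPKM over the 6 libraries, and the ranges of the 3 genes did not overlap. PIK3R2 made up 57.2% ± 5.9 of class IA regulatory FPKM in siSRPX2 libraries and 57.5% ± 6.3 in siControl libraries (SD, n = 3 each). Both replicate 2 libraries had the lowest PIK3R2 level of their group.

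The PIK3R2 values carry a limit, because a readthrough gene on the same strand, AC007192, holds the whole PIK3R2 coding sequence and 87.2% of its annotated exon bases. The first 60 coding bases are shown for both transcripts because a read from this stretch cannot tell them apart. They lie at chr19:18155880-18155939 on the plus strand (GRCh38, GENCODE release 29), and no letter is capitalised because no base differs, as none does over all 2184 coding bases.
PIK3R2: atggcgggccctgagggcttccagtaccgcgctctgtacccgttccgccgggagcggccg
AC007192: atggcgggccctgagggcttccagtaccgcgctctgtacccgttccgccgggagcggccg
AC007192 was counted with 893, 52 and 3325 reads in siSRPX2 libraries, and with 1493, 2598 and 22 reads in siControl libraries. It thus took between 0.336% and 40.5% of the summed reads of the 2 genes, with no order by siRNA or replicate number. The summed reads were 8383, 4607 and 8433 in siSRPX2 libraries, and 7770, 6411 and 6548 in siControl libraries. Replicate 2 held the lowest sum in each group, and in siControl it lay close to replicate 3.

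The class II kinase genes were led by PIK3C2A, with 7.47, 7.87 and 8.81 FPKM in siSRPX2 libraries and 7.53, 9.65 and 8.76 FPKM in siControl libraries. PIK3C2B averaged 3.22 FPKM. AKT1 exceeded AKT2 in every library, at 15.2, 19.8 and 14.7 FPKM in siSRPX2 libraries and 14.4, 18.7 and 13.8 FPKM in siControl libraries, whereas AKT2 averaged 7.84 FPKM. AKT1 made up 67.7% ± 3.5 of the AKT1 and AKT2 sum in siSRPX2 libraries and 66.2% ± 3.2 in siControl libraries (SD, n = 3 each). Its share was largest in both replicate 2 libraries (71.8% in siSRPX2, 69.9% in siControl). PDPK1, the kinase that phosphorylates the AKT activation loop, averaged 4.72 FPKM.

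For the mTOR complexes, MAPKAP1 (the mTORC2 subunit SIN1) averaged 14.7 FPKM, the kinase gene MTOR 6.6 FPKM, the shared subunit MLST8 6.09 FPKM, the mTORC1 scaffold RPTOR 3.98 FPKM and the mTORC2 scaffold RICTOR 3.87 FPKM. MTOR and MLST8 overlapped, and so did RPTOR and RICTOR. Per kilobase of the longest coding transcript MLST8 (15.9) exceeded MTOR (10.3), so the order of these 2 depends on the length used. RHEB averaged 19.4 FPKM, 7.73 times the tuberous sclerosis gene TSC1 (2.51 FPKM). TSC1 exceeded TSC2 (2.35 FPKM) in 5 of 6 libraries, and this order turned per kilobase of the longest coding transcript (TSC2 7.93, TSC1 5.68).

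Among the effectors, EIF4EBP1 had 67.4, 116 and 93.9 FPKM in siSRPX2 libraries and 65.6, 109 and 85.3 FPKM in siControl libraries, and the S6 kinase gene RPS6KB1 averaged 6.36 FPKM. GSK3A had 12.1, 13.3 and 11.8 FPKM in siSRPX2 libraries and 10.9, 13.8 and 11.1 FPKM in siControl libraries, and GSK3B averaged 9.32 FPKM. The GSK3A share of GSK3 was 56.5% ± 2.7 in siSRPX2 libraries and 56.5% ± 5.2 in siControl libraries (SD, n = 3 each). FOXO3 was the main FOXO gene, with 13.1, 7.12 and 11.7 FPKM in siSRPX2 libraries and 12.1, 7.57 and 12.1 FPKM in siControl libraries, against means of 1.95 FPKM for FOXO4 and 1.88 FPKM for FOXO1. The lipid phosphatase gene INPP4B averaged 2.98 FPKM, and the AKT phosphatase genes PHLPP1 and PHLPP2 averaged 2.32 and 1.83 FPKM. PTK2, which encodes focal adhesion kinase, averaged 10.8 FPKM, and IRS1 3.91 FPKM.

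**Figure D2:**
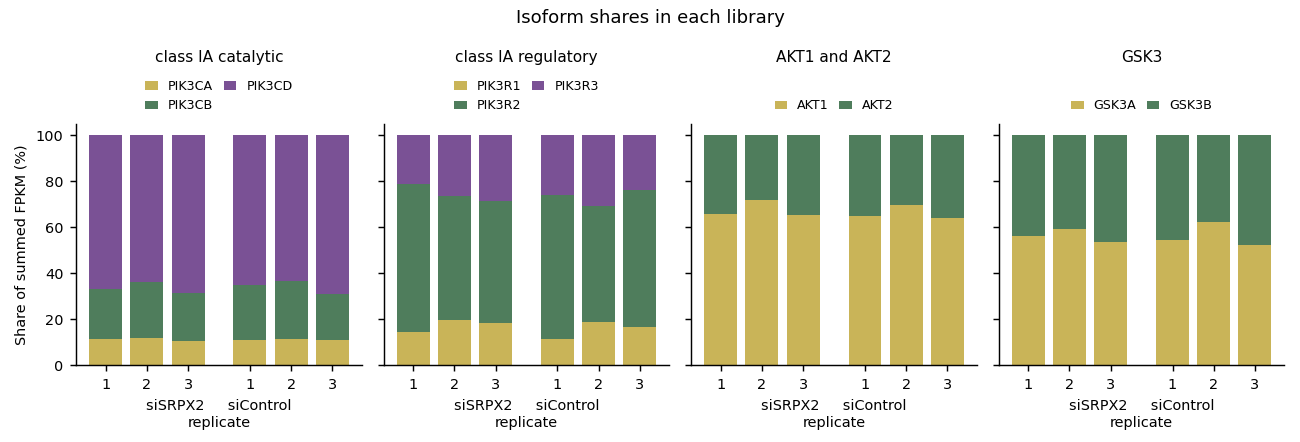
Share of each isoform in the summed FPKM of its family (%) in each library, with siSRPX2 replicates 1 to 3 left of siControl replicates 1 to 3. PIK3CD holds between 63.4% and 69.1% of the class IA catalytic level, and AKT1 holds its largest shares in both replicate 2 libraries.

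None of 4 isoform shares passed a test between siSRPX2 and siControl. The difference, siSRPX2 minus siControl, was -0.56 percentage points for PIK3CB (exact two-sided permutation test p = 0.9), -0.30 for PIK3R2 (p = 1), 1.5 for AKT1 (p = 0.5) and -0.01 for GSK3A (p = 1), and the adjusted p over the 4 tests was 1 for each. With 3 libraries against 3 the smallest p this test can give is 0.1, so it could not pass 0.05. Within pairs the AKT1 share was higher in siSRPX2 in 3 of 3, with an exact sign-flip p of 0.25, the smallest that 3 pairs can give.

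The second question was how far the members differed between siSRPX2 and siControl cells. SRPX2 itself had 140, 157 and 263 reads in siSRPX2 libraries, against 243, 335 and 308 reads in siControl libraries. As CPM, counts scaled to the effective library size, these were 1.90, 2.17 and 3.75 against 3.87, 4.55 and 4.32. The groups did not overlap, but siSRPX2 replicate 3 lay close to the lowest siControl library. Within pairs the SRPX2 difference was smallest in pair 3 (3.75 against 4.32 CPM), so the pairs compared below do not hold equal knockdowns. On the FPKM scale the groups did overlap, since siSRPX2 replicate 3 (0.462 FPKM) exceeded siControl replicate 1 (0.448 FPKM). In edgeR's quasi-likelihood fit over all genes its log2 fold change was -0.71 ± 0.33 (SE, above the adjusted threshold of 0.05), and -0.76 ± 0.24 with the replicate number as a block (adjusted p = 0.835). SRPX2 lay below 0.5 FPKM on average and was therefore not among the 13317 genes of the comparisons that follow.

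None of the 32 tested members passed an adjusted p of 0.05 in edgeR's quasi-likelihood test, where 0 of 13317 genes (0%) passed. No member had an unadjusted p under 0.05 either, against 66 genes (0.496%) in all. With the replicate number as a block 6 genes (0.0451%) passed the adjusted threshold, none of them a member, and the smallest adjusted p of a member was 0.523. At an unadjusted p under 0.05 in the blocked fit, 2 members were lower in siSRPX2 (RHEB and RICTOR), against 4.89% of all genes, and 1 was higher (MAPKAP1), against 4.32%. These shares, 6.25% and 3.12% of the members, lie near the background. DESeq2 called no member with or without the block.

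The sizes of the differences were small. The median log2 fold change of the members was -0.02, against -0.01 over all tested genes, and the median absolute value was 0.09 for both. In the blocked fit the 95% intervals of all 32 members lay within a 2-fold change in either direction, and those of 31 members within 1.5-fold, the exception being PIK3CG. Without the block 29 intervals lay within 2-fold and 21 within 1.5-fold. Smaller differences than these bounds lie within the intervals.

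**Figure D3:**
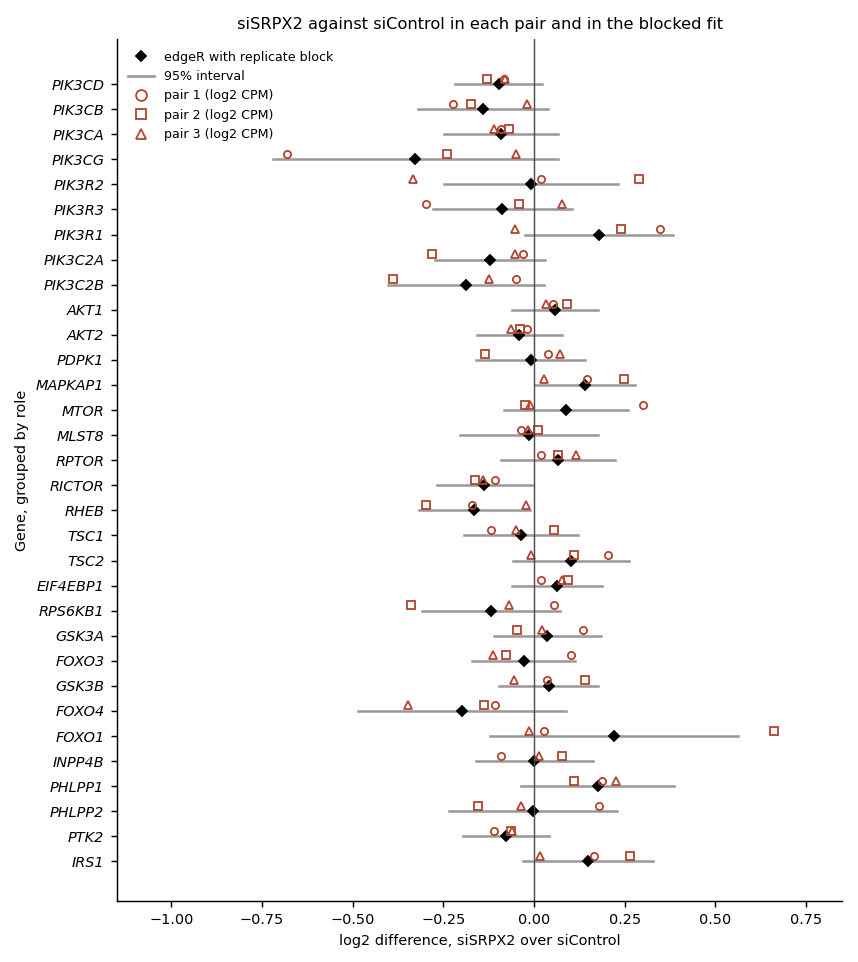
log2 difference of siSRPX2 over siControl for 32 genes, grouped by role. Black diamonds and grey bars are the edgeR estimate with the replicate block and its 95% interval, and open symbols are the differences within pairs of libraries of the same replicate number, in log2 CPM. The intervals of RHEB, RICTOR and MAPKAP1 leave out 0 before adjustment, and no adjusted p is below 0.523.

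By CPM the 4 class I genes and both class II genes were lower in siSRPX2 in each of the 3 pairs, as were 16.9% of all genes. By deposited FPKM this held only for PIK3CA, PIK3CD and PIK3C2B among them. The planned role groups kept these classes apart. PIK3CA was the only member whose groups did not overlap, with 42.6, 42.6 and 44.6 CPM in siSRPX2 libraries and 45.4, 44.7 and 48.2 CPM in siControl libraries. The highest siSRPX2 library lay just below the lowest siControl library. Its log2 fold change in the blocked fit was -0.09 (95% interval -0.25 to 0.07, adjusted p = 0.708). Groups that do not overlap with siSRPX2 lower were found for 1.65% of all genes, and with siSRPX2 higher for 1.58%, which held no member. By deposited FPKM the PIK3CA groups overlapped. On the opposite strand KCNMB3, which had 109 reads over the 6 libraries, covers 35.8% of the PIK3CA exon bases. Whether the counting used strand is not stated. Neighbours with more reads than the member overlap small parts of other members' exons. They are OSMR on RICTOR (1.69% of exon bases), CLSTN1 on PIK3CD (1.41%), PKD1 on TSC2 (3.96%) and, on the same strand, RPS13 on PIK3C2A (0.63%). Their effect on the counts was not tested.

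PIK3CG, the class IB gene, showed the widest spread. It had 4.79, 8.03 and 3.30 CPM in siSRPX2 libraries, against 7.70, 9.49 and 3.42 CPM in siControl libraries. The groups overlapped, and the difference was large in pair 1 and small in pair 3. Its log2 fold change was -0.33 (95% interval -0.72 to 0.07, adjusted p = 0.60, blocked fit).

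PIK3C2B, a class II kinase gene, had 36.8, 20.8 and 39.0 CPM in siSRPX2 libraries against 38.1, 27.3 and 42.5 CPM in siControl libraries, with a log2 fold change of -0.19 (95% interval -0.40 to 0.03, adjusted p = 0.595, blocked fit). The replicate 2 libraries of both groups lay below all others. PIK3C2A differed by -0.12 (-0.27 to 0.03) and PIK3CD by -0.10 (-0.22 to 0.02) on the same scale. In all, 11 of the 32 members (34.4%) were lower in siSRPX2 in every pair, against 16.9% of all genes, and 6 (18.8%) were higher in every pair, against 15.5%. Besides the catalytic genes the lower ones were AKT2, RICTOR, RHEB, FOXO4 and PTK2. By deposited FPKM only 5 were lower in every pair (PIK3CA, PIK3CD, PIK3C2B, RICTOR and FOXO4), against 10.7% of genes, and 10 were higher, against 20.7%. Over all tested genes the median within-pair log2 difference of FPKM + 1 was 0.016 in pair 1, -0.019 in pair 2 and 0.050 in pair 3. The FPKM counts are therefore set beside the background on that scale. Why the scales differ was not tested. With library size alone as the scale, 12 members were lower in every pair, among them the 6 catalytic genes, against 16.6% of all genes.

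The regulatory gene PIK3R1 had 49.1, 46.4 and 52.8 CPM in siSRPX2 libraries against 38.6, 39.3 and 54.7 CPM in siControl libraries. It was higher in pairs 1 and 2 and slightly lower in pair 3, with a log2 fold change of 0.18 (95% interval -0.03 to 0.38, adjusted p = 0.595, blocked fit). IRS1, the adaptor of insulin and IGF receptors, had 47.5, 39.6 and 49.8 CPM in siSRPX2 libraries against 42.4, 33.0 and 49.2 CPM in siControl libraries. It was higher in each pair (log2 fold change 0.15, 95% interval -0.03 to 0.33, adjusted p = 0.601), and its groups overlapped. PTK2 differed by -0.08 (-0.20 to 0.04). PIK3R2 differed by -0.01 (-0.25 to 0.23), with pair differences of opposite sign (0.29 in pair 2 and -0.33 in pair 3).

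The kinases AKT1, AKT2 and PDPK1 differed by 0.06, -0.04 and -0.01 on the log2 scale in the blocked fit, and their intervals together ran from -0.16 to 0.18. AKT1 was higher in siSRPX2 in each pair by 0.05, 0.09 and 0.03. MTOR differed by 0.09 (-0.08 to 0.26), with a difference of 0.30 in pair 1 and of -0.02 and -0.01 in the other pairs.

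The mTORC2 genes RICTOR and MAPKAP1 differed in opposite directions. RICTOR had 61.3, 50.5 and 56.4 CPM in siSRPX2 libraries, against 66.2, 56.5 and 62.2 CPM in siControl libraries, and was lower in each pair by a similar amount (-0.11, -0.16 and -0.14). MAPKAP1 had 109, 149 and 90.5 CPM in siSRPX2 libraries, against 98.9, 126 and 88.8 CPM in siControl libraries, and was higher in each pair. The log2 fold change in the blocked fit was -0.14 for RICTOR (95% interval -0.27 to -0.01, adjusted p = 0.527) and 0.14 for MAPKAP1 (0.00 to 0.28, adjusted p = 0.537). The mTORC1 scaffold RPTOR differed by 0.07 (-0.09 to 0.22).

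RHEB (chr7:151466012-151520120, minus strand, GRCh38) had the smallest p of the members in the blocked fit, whereas PIK3CB had it without the block. It had 73.7, 77.9 and 64.5 CPM in siSRPX2 libraries, against 83.1, 95.7 and 65.5 CPM in siControl libraries. It was lower in each pair (-0.17, -0.30 and -0.02 on the log2 scale), and the groups overlapped. The log2 fold change was -0.16 (95% interval -0.32 to -0.01, adjusted p = 0.523, blocked fit).

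RHEB has processed copies elsewhere in the genome. A stretch within 1 coding exon (coding bases 463 to 512) is shown beside the copies RHEBP1 and RHEBP2 because short reads from it are hard to assign, with capitals at the 2 positions where the copies differ from RHEB. RHEB lies here at chr7:151467162-151467211, RHEBP1 at chr10:46634955-46635004 and RHEBP2 at chr10:47706665-47706714 (GRCh38, GENCODE release 29).
RHEB: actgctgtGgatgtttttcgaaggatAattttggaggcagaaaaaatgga
RHEBP1: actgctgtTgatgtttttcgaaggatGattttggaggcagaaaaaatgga
RHEBP2: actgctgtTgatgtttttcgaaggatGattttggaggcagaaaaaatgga
RHEBP1 matches 547 of the 552 coding bases of RHEB. The copies together were counted with 1485, 1583 and 1528 reads in siSRPX2 libraries, and 1555, 1988 and 1323 reads in siControl libraries, beside 5351, 5747 and 4437 reads of RHEB in siSRPX2 libraries and 5124, 7233 and 4566 in siControl libraries. With the reads of the copies added to RHEB, the blocked log2 fold change was -0.15 and its unadjusted p was 0.0633. How the counting divided the reads between the genes is not given in the sources used here.

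**Figure D4:**
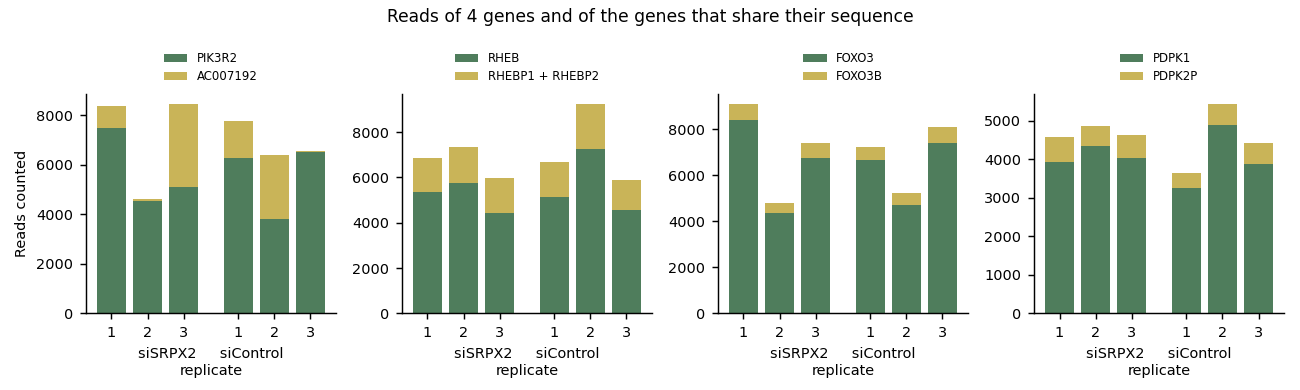
Reads counted for PIK3R2, RHEB, FOXO3 and PDPK1 (green) and for the readthrough gene or copies with which they share sequence (yellow), in siSRPX2 replicates 1 to 3 left of siControl replicates 1 to 3. AC007192 varies between 22 and 3325 reads, whereas the other partner genes keep a similar part of the sum in each library.

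The tuberous sclerosis genes TSC1 (-0.04, 95% interval -0.19 to 0.12) and TSC2 (0.10, -0.06 to 0.26), the mTORC1 substrates EIF4EBP1 (0.06, -0.06 to 0.19) and RPS6KB1 (-0.12, -0.31 to 0.07), and the kinase genes GSK3A (0.04, -0.11 to 0.18) and GSK3B (0.04, -0.10 to 0.18) all had intervals that include 0. FOXO3 differed by -0.03 (-0.17 to 0.11) and FOXO4 by -0.20 (-0.49 to 0.09). FOXO1 differed by 0.22 (-0.12 to 0.56), and the difference came from pair 2 (0.66), with 0.03 and -0.01 in pairs 1 and 3. Of the phosphatase genes, PHLPP1 had 29.4, 27.3 and 18.0 CPM in siSRPX2 libraries against 25.8, 25.3 and 15.4 CPM in siControl libraries, and was higher in each pair (0.17, -0.04 to 0.39, adjusted p = 0.60, blocked fit). Its replicate 3 libraries lay below all others, so the groups overlapped. PHLPP2 (-0.00) and INPP4B (0.00) were near 0.

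A wider list of 72 genes of the pathway (receptors, amino acid sensors, the lysosomal Ragulator and RAG genes, further phosphatases and targets) had 70 genes in the table and 62 that were tested. In edgeR's test no gene of the list was called, whether the block was in the model or left out. At an unadjusted p under 0.05 in the blocked fit 4 were lower (6.45%, against 4.89% of all genes) and 1 was higher (1.61%, against 4.32%). DDIT4, which encodes the stress-induced mTORC1 inhibitor REDD1, had 510, 264 and 229 CPM in siSRPX2 libraries, against 763, 294 and 261 CPM in siControl libraries. It was lower in each pair, and the replicate 1 libraries of both groups lay highest. Its log2 fold change was -0.31 (95% interval -0.51 to -0.11, adjusted p = 0.439, blocked fit), and DESeq2 with the block called it at an adjusted p of 0.0451.

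DEPTOR, an mTOR-binding inhibitor, had 41.5, 11.0 and 46.0 CPM in siSRPX2 libraries, against 56.4, 16.6 and 48.6 CPM in siControl libraries. It was lower in each pair (log2 fold change -0.37, 95% interval -0.61 to -0.12, adjusted p = 0.476, blocked fit), and both replicate 2 libraries were far below the rest. PRR5, another mTORC2 subunit (-0.30), and EIF4EBP2, which encodes the translation repressor 4E-BP2 (-0.13), were lower in each pair. The LKB1 gene STK11 differed by -0.15, with an interval that includes 0, and was lower in 2 of 3 pairs. The adaptor gene BCAR1 (p130Cas, a partner of focal adhesion kinase) was higher at 0.13. None of these 4 had an adjusted p under 0.523.

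The third question was how the members varied with the replicate number, whose meaning no source gives. Of the 32 members 22 (68.8%) differed between replicate numbers at an adjusted p under 0.05 (edgeR quasi-likelihood F test over the 3 numbers with siRNA in the model), against 55.2% of all genes. Within the wider list 40 of 62 did (64.5%). Replicate 2 was the lowest in both siRNA groups for 13 members, or 40.6%, against 31.5% of all genes, and the highest in both for 10 members, or 31.2%, against 31.1%. The sign of replicate 2 against the mean of replicates 1 and 3 was the same in both siRNA groups for 29 of 32 members, or 90.6%, against 84.0% of all genes. Whether the members' shares differ from those of all genes was not tested.

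The 3 FOXO genes were lower in replicate 2. FOXO3 had 116, 59.1 and 98.3 CPM in siSRPX2 libraries, and 108, 62.4 and 106 CPM in siControl libraries, so that replicate 2 lay below replicates 1 and 3 in both groups (adjusted p = 0.000114). FOXO4 had 9.12, 4.70 and 9.32 CPM in siSRPX2 libraries, and 9.84, 5.17 and 11.9 CPM in siControl libraries (adjusted p = 0.00126). Replicate 2 of FOXO1 differed from the mean of replicates 1 and 3 by -0.44 in siSRPX2 and by -1.10 in siControl libraries on the log2 scale (adjusted p = 0.00699). FOXO3 has a near-identical copy, FOXO3B, whose reads made up between 7.52% and 10.1% of the sum of both, and the replicate difference of the summed reads had an adjusted p of 0.000115.

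PIK3C2B was also lower in replicate 2, with a log2 difference from the mean of the other replicates of -0.86 in siSRPX2 and -0.56 in siControl libraries. For PIK3R2 this difference was -0.50 in siSRPX2 and -0.95 in siControl libraries. The PIK3R2 adjusted p was 0.00199, and with the AC007192 reads added it was 0.0126. TSC2 (adjusted p = 0.00328) and IRS1 (adjusted p = 0.0109) were lower in replicate 2 of both groups.

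Of the 5 mTOR complex genes, MAPKAP1, RPTOR and MTOR were highest in replicate 2 of both groups, RICTOR was lowest there (-0.22 in siSRPX2 and -0.18 in siControl libraries, adjusted p = 0.0367), and MLST8 did not pass the test. EIF4EBP1 had 68.2, 110 and 90.6 CPM in siSRPX2 libraries and 67.4, 103 and 85.9 CPM in siControl libraries (adjusted p = 0.000293). Its replicate 1 libraries were the lowest of both groups. MAPKAP1, with the CPM values given above, was highest in replicate 2 of both groups (adjusted p = 0.000643). RPTOR had 45.9, 58.2 and 36.1 CPM in siSRPX2 libraries and 45.4, 55.5 and 33.3 CPM in siControl libraries (adjusted p = 0.000646). MTOR (adjusted p = 0.0127), RHEB (0.00880) and AKT1 (0.00285) were highest in replicate 2 as well, and PIK3CG by the most, at 1.01 in siSRPX2 and 0.88 in siControl libraries on the log2 scale (adjusted p = 0.00258).

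TSC1 followed another number. It had 41.0, 43.5 and 62.6 CPM in siSRPX2 libraries, and 44.5, 41.8 and 64.8 CPM in siControl libraries, so that replicate 3 stood above the others (adjusted p = 0.000785). PHLPP1 was lowest in replicate 3 of both groups (adjusted p = 0.00179). The 10 tested members without a replicate difference at this threshold were PIK3CA, PIK3CB, PIK3C2A, AKT2, PDPK1, MLST8, RPS6KB1, GSK3A, PHLPP2 and PTK2, the last at an adjusted p of 0.0516. AKT2 was the most even member, with a highest level 1.04 times the lowest over the 6 libraries in FPKM.

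**Figure D5:**
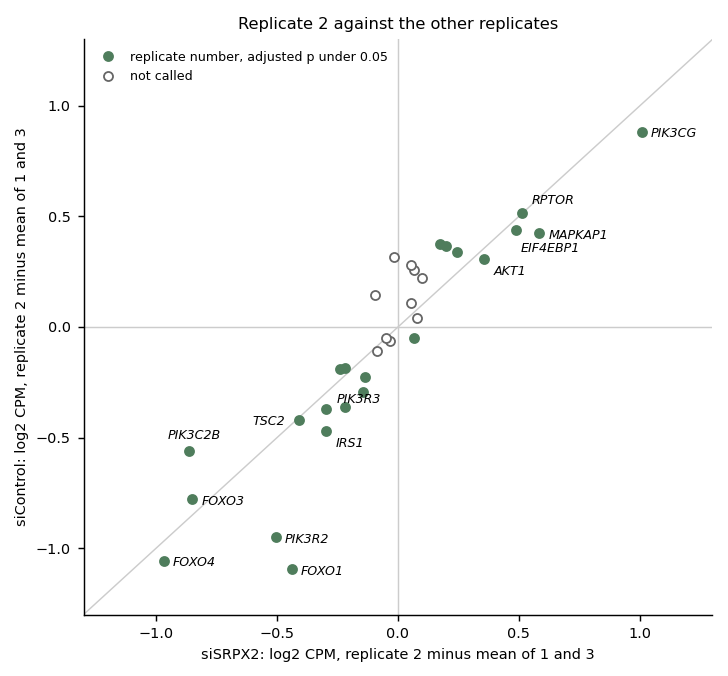
log2 CPM of replicate 2 minus the mean of replicates 1 and 3, in siSRPX2 libraries (horizontal axis) and in siControl libraries (vertical axis), for 32 genes. Filled points passed the test of the replicate number, and the grey diagonal marks equal values. Of the 32 genes 29 have the same sign on both axes, with FOXO3, FOXO4, FOXO1, PIK3R2 and PIK3C2B at the low end and PIK3CG at the high end.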

How the data were processed

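RNA of TPC1 cells was sequenced on an Illumina NovaSeq in 6 libraries. The authors deposited raw counts per gene beside FPKM, which they made with StringTie (2.1.6) and ballgown. Differential expression tools listed by the submitters are DESeq2 and edgeR. No source used here names the aligner, the build, the annotation or the counting rule. GENCODE release 29 holds 30496 of the 31348 gene IDs. For 30437 the start differs by no more than 100000 bases, and GRCh38 coordinates were therefore used.

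The counts were tested with edgeR 4.0.16 (TMM, glmQLFit and glmQLFTest, R 4.3.3) over the 13317 genes with a mean of at least 0.5 FPKM, with Benjamini-Hochberg adjustment over all of them. CPM are TMM-scaled, and within-pair differences are of log2 CPM with a prior count of 2. Intervals are 95%. The study used DESeq2, here an alternative (1.42.0), beside limma 3.58.1 on log2(FPKM + 1) or log2(FPKM + 0.1), RLE size factors, no filter, filterByExpr and leaving out libraries. The fits were tested on simulated counts in which the changed genes differed 2-fold. The simulated spread between replicate numbers and the dispersion were set to chosen values, the same for every gene, and were not estimated from these libraries. There the blocked fit called nearly all changed genes and the fit without the block called none of them. How far this carries over to the real libraries was not tested. The absence of calls without the block is therefore not read as an absence of change. Changes as small as the member estimates were not simulated, so the simulation does not tell whether the blocked fit would call them.

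Pairing was checked by correlating each library's deviation from its group mean. Libraries of the same number gave 0.552 (1), 0.731 (2) and 0.602 (3), and the numbers in the titles were taken as pairs. No pair of different numbers exceeded 0.0693. These lower values are partly built in, because deviations from a group mean cancel out within the group. No 2 libraries agreed within sampling noise (chi-square per gene of at least 17.6).

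The members, lists and tests were chosen with earlier results of these data known. Every member is given with its level. Values per library are given for the leading gene of each role group, for the 8 members with the smallest p in the blocked siRNA fit and for the 6 with the smallest p for the replicate number. From the wider list 6 genes were named by the blocked p. The values per library of PIK3CA, and the statements on FOXO1, TSC2, MTOR and other members beyond this rule, were chosen after the values were seen. Summed reads and levels per coding transcript were also added then. Fewer cells and less RNA per cell cannot be told apart. Protein measurements are not analysed here.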

Additional observations from a re-analysis of the deposited data

How the results depend on the processing

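No member was called under any of 19 alternatives. Of 361 named member estimates 30 changed sign, and none of the 361 had an adjusted p under 0.05 (the smallest was 0.198, edgeR). The count of all genes called was 3 with DESeq2, 6 with the replicate block in edgeR (also with shared reads summed), 89 with the block in DESeq2, and between 0 and 213 with a library or a replicate number left out (15 without replicate 1, 79 without 2 and 213 without 3, with the block). In the wider list 1 gene was called by DESeq2 with the replicate block (DDIT4) and 1 without replicate 3 (DEPTOR, adjusted p = 0.0417). The replicate block changed no call of a member. By FPKM 5 members were lower in every pair, against 11 by CPM, and in 0 members the groups did not overlap, against 1. Without the filter the adjustment ran over all 31348 genes, and the replicate number called 14 members. With the filter it called 22 (68.8%, against 55.2% of all genes tested). The share of all genes without the filter is not given here, so the lower count is not read as a result about the members. The median log2 fold change of the members ran from -0.0509 (without siControl replicate 1) to 0.000718 (without replicate 3) when libraries were left out. PIK3R2 was at 0.0123 and 0.0153 in limma on log2(FPKM + 1) and log2(FPKM + 0.1). The cause of these changes was not tested.

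With a library or a replicate number left out, log2 fold changes turned sign within these ranges: MAPKAP1 -0.0637 to 0.31, PIK3C2B -0.32 to 0.0764, PHLPP1 -0.0359 to 0.35, IRS1 -0.0050 to 0.28, PIK3R2 -0.29 to 0.16, AKT1 -0.0674 to 0.17, GSK3A -0.00365 to 0.11, FOXO3 -0.23 to 0.22, EIF4EBP1 -0.11 to 0.23, RPTOR -0.13 to 0.25, TSC1 -0.25 to 0.18 and FOXO4 -0.49 to 0.0416.

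Others kept their sign over wide ranges: RHEB -0.31 to -0.0444, PIK3CG -0.76 to -0.0467, PIK3R1 0.0731 to 0.34, RICTOR -0.21 to -0.0660, PIK3CD -0.19 to -0.0139 and PIK3C2A -0.19 to -0.0421.

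The differences in isoform share also turned sign with a library left out, and ran between -2.09 and 0.57 percentage points for PIK3CB, between -3.85 and 2.23 for PIK3R2, between -0.52 and 3.33 for AKT1 and between -2.02 and 2.90 for GSK3A. Depth limits INPP5D, which had no more than 29 reads in any library.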

Other observations

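Further genes of the wider list, chosen after their values were seen, differed by replicate number. PIK3IP1, which encodes a negative regulator of the PI3K catalytic subunits, had 24.1, 5.42 and 25.1 CPM in siSRPX2 libraries, and 37.6, 3.32 and 27.6 CPM in siControl libraries (adjusted p for the replicate number = 0.000231, edgeR). RRAGD, a RAG GTPase gene of the amino acid arm of mTORC1, had 3.5, 1.4 and 10.0 CPM in siSRPX2 libraries, and 3.66, 1.47 and 8.14 CPM in siControl libraries (adjusted p = 0.000130). Both genes were lowest in replicate 2 of each group. The arginine sensor gene CASTOR1, the leucine sensor gene SESN2 and the insulin receptor gene INSR were also lower in replicate 2 of both groups. Their log2 differences from the mean of replicates 1 and 3 were -1.38, -1.12 and -1.31 in siSRPX2 libraries, and -1.12, -0.97 and -0.93 in siControl libraries.

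TELO2 and TTI1, which encode partners that stabilise mTOR and related kinases, were higher in replicate 2 of both groups, by 0.72 and 0.41 in siSRPX2 libraries and by 0.94 and 0.71 in siControl libraries. EIF4E, the cap-binding protein that 4E-BP1 holds, was higher by 0.50 in siSRPX2 and by 0.64 in siControl libraries. IRS2 differed by number in another way, with 119, 29.2 and 32.8 CPM in siSRPX2 libraries and 109, 35.1 and 34.4 CPM in siControl libraries, so that replicate 1 stood above the others in both groups (adjusted p = 1.62e-05). The keratin gene KRT18 was at 56.7, 119 and 52.7 FPKM in siSRPX2 libraries and 56.2, 91.4 and 49.2 FPKM in siControl libraries. It was highest in both replicate 2 libraries, as were 31.1% of all tested genes by CPM. No link between KRT18 and the pathway genes was tested.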
